A study of Mus musculus with 4 samples.

Results

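Iron and heme handling was followed through 10 genes of peritoneal macrophages, namely Hmox1, Blvra, Blvrb, Fth1, Ftl1, Tfrc, Slc40a1, Slc11a1, Ireb2 and Cd163. They were taken by gene symbol for their known roles in the breakdown of heme and in the storage, import and export of iron, and they are 10 of the 13834 genes in the count table. All 10 were in the table and passed the filter on low counts, as did 12542 genes in all. RNA was sequenced from 4 samples of peritoneal cells, 2 from Dnmt1fl/fl mice and 2 from Dnmt1KO mice. Mice of both genotypes carried floxed alleles of Dnmt1, the DNA methyltransferase that copies methylation to newly made strands, and Dnmt1KO mice also expressed Cre recombinase from the LysM promoter, which is active in myeloid cells and not in macrophages alone. The sample labels call the control genotype wild type, whereas the titles and methods give it as floxed. The methods for these cells describe mice of 10 weeks, injected with thioglycolate broth 3 days before the peritoneal cavity was washed out. The labels do not say whether the samples of a genotype came from separate animals, so the p-values measure only the spread between these samples, which may be technical.

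Macrophages take up worn-out red cells and free hemoglobin, open the heme ring with heme oxygenase, and either store the released iron in ferritin or return it to the plasma through ferroportin. Iron-regulatory proteins sense the iron inside the cell by binding RNA hairpins called iron-responsive elements. A hairpin before the coding sequence of a ferritin or ferroportin messenger lets a bound protein hold back translation, and hairpins behind the coding sequence of the transferrin receptor messenger protect it from decay. Transcription of several of these genes is also set by heme and oxidants, through the repressor Bach1 and the activator Nrf2, the product of Nfe2l2.

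The iron-responsive elements are shown first. They divide the genes into those whose translation iron controls, those whose message stability it controls, and those in which no hairpin was found. A script searched the untranslated regions of the coding transcripts (GENCODE M21 on GRCm38) on the sense strand for a bulged C, a stem arm of 5 bases, the loop letters CAGTGN and 5 bases able to pair with that arm. The match was found in 4 of the 10 genes. Among 11818 tested genes with a coding transcript searched, 24 (0.20%) held it in a 5′ UTR and 89 (0.75%) in a 3′ UTR. Each element is printed 5′ to 3′ in 29 bases, as DNA letters, with the 6 bases of the loop in capitals.
Fth1 5′ UTR, chr19:9982732-9982760, plus strand: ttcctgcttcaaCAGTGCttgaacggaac
Ftl1 5′ UTR, chr7:45459779-45459807, minus strand: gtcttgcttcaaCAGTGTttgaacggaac
Slc40a1 5′ UTR, chr1:45925465-45925493, minus strand: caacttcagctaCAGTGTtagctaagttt
Tfrc 3′ UTR, chr16:32631219-32631247, plus strand: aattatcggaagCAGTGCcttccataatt
Tfrc 3′ UTR, chr16:32631598-32631626, plus strand: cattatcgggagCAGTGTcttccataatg
Tfrc 3′ UTR, chr16:32631663-32631691, plus strand: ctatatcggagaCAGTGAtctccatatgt
Tfrc 3′ UTR, chr16:32631710-32631738, plus strand: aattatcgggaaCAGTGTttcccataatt
The ferritin elements had 26 of 29 bases in common, whereas the ferritin heavy chain and ferroportin elements had 13. The Tfrc elements shared 18 to 25 of 29 bases among themselves and 9 to 11 with the element of Fth1. A match is a description of the letters and not a test of binding. Of the further iron and heme genes listed for comparison, Bola3 was the only one with a match, in its 3′ UTR, on chromosome 6 from 83358421 to 83358449. The search found no match in Hmox1, Blvra, Blvrb, Slc11a1, Ireb2 or Cd163. For these and for the other listed genes, that says only that these letters are not in the transcripts read. All 5 bases of the arm had to pair, so an element with an unpaired base there would be missed.

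The totals were 20228071 to 24198943 counts per sample, and 3 counts corresponded to 0.124 to 0.148 CPM, the count per 1e6 counts of the library. CPM values below were scaled between samples with TMM in edgeR, where Dnmt1KO replicate 1 had a factor of 0.91 and the other samples had 1.02 to 1.04. The deleted gene, Dnmt1, stood at 86.5 and 67.0 CPM in Dnmt1fl/fl and at 36.9 and 42.7 CPM in Dnmt1KO, with a log2 fold change of -0.95 (SE 0.24) and an unadjusted p of 0.00839 in edgeR's quasi-likelihood test. The macrophage markers Adgre1 (700 to 986 CPM), Csf1r (1010 to 1130 CPM) and Cd68 (1140 to 1830 CPM) were high in every sample. The 8 macrophage markers summed to 35700 and 34400 CPM in Dnmt1fl/fl and to 17700 and 21800 CPM in Dnmt1KO. Most of that sum was Lyz2, the lysozyme gene whose promoter drives the Cre, at 29500 and 28600 CPM in Dnmt1fl/fl and 11300 and 15700 CPM in Dnmt1KO (log2 fold change -1.10, edgeR unadjusted p = 0.0145), and it was the only one of the 8 whose genotypes did not overlap. Dnmt1KO replicate 1 was the lowest sample in 5 of the 8, such as Mrc1 (246 CPM beside 322 to 566 CPM), and the highest in 2, Cd68 and Fcgr1 (334 CPM beside 184 to 216 CPM), where over all genes it was lowest in 39.6% and highest in 38.8%. Dnmt1KO replicate 1 stood apart from the other 3 samples in markers of further cell types. The 7 neutrophil markers tested, of 10 listed, summed to 759 CPM in it and to 194 to 261 CPM in the others, and each was highest in it. The 7 B cell markers summed to 184 CPM in it and to 399 to 608 CPM in the others. In these bulk samples, fewer cells of a type and less RNA per cell cannot be told apart. The 7 mesothelial and stromal markers summed to 109 CPM in it and to 24.9 to 55.4 CPM in the others. Among 8 markers of resident large peritoneal macrophages it was the lowest sample in 7 and the highest in 1 (Fabp7). Their median difference in it from the Dnmt1fl/fl mean was -0.794 on the log2 scale. In 2 of the 8 the genotypes did not overlap, beside 16.7% of all genes, with both Dnmt1KO samples lower. Timd4 was at 91.4 and 140 CPM in Dnmt1fl/fl and 67.6 and 78.8 CPM in Dnmt1KO. Icam2 was at 41.4 and 72.1 CPM against 28.4 and 40.5 CPM. Of 12 erythroid markers, 2 were analysed here: Klf1 had 2 to 6 counts, and Hbb-bs, a hemoglobin chain, lay between 0.0797 and 0.847 CPM.

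In the comparison of genotypes, none of the iron and heme genes passed the test. With edgeR's quasi-likelihood test, 0 of the 10 genes had an adjusted p under 0.05, and 0 of the 12542 genes tested did (0%). At an unadjusted p under 0.05 the counts were 0 of 10 and 35 of 12542 (0.279%). DESeq2 and limma-voom also called 0 of the 10, and DESeq2 called 1 gene in the whole table. The genotypes overlapped in all 10 genes, while 16.7% of all genes tested had both Dnmt1KO samples above or both below the Dnmt1fl/fl samples. For a single gene, 2 against 2 samples allow an exact permutation p (two-sided) of no less than 0.333. The median log2 fold change of the 10 genes was 0.32, beside 0.00457 for all genes tested, and it was -0.025 without Dnmt1KO replicate 1. A p that misses the threshold does not show that the genotypes were alike, and the standard errors given below, from 0.23 to 0.88 on the log2 scale, set how large a difference could be seen.

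Dnmt1KO replicate 1 was the highest of the 4 samples in 7 of the 10 genes and the lowest in the other 3, and over all genes tested it was the highest in 38.8% and the lowest in 39.6%. Dnmt1KO replicate 2 stayed near the Dnmt1fl/fl samples except in Tfrc and Cd163, where it was the highest. The median difference from the Dnmt1fl/fl mean over the 10 genes was 0.609 on the log2 scale for replicate 1 and -0.0117 for replicate 2. A log2 difference of 1 or more separated the Dnmt1KO replicates in 4 of the 10 genes (Hmox1, Ftl1, Slc40a1 and Cd163; 18.4% of all genes). The Dnmt1fl/fl replicates did so in 2 (Slc40a1 and Cd163; 5.13% of all genes).

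**Figure D1:**
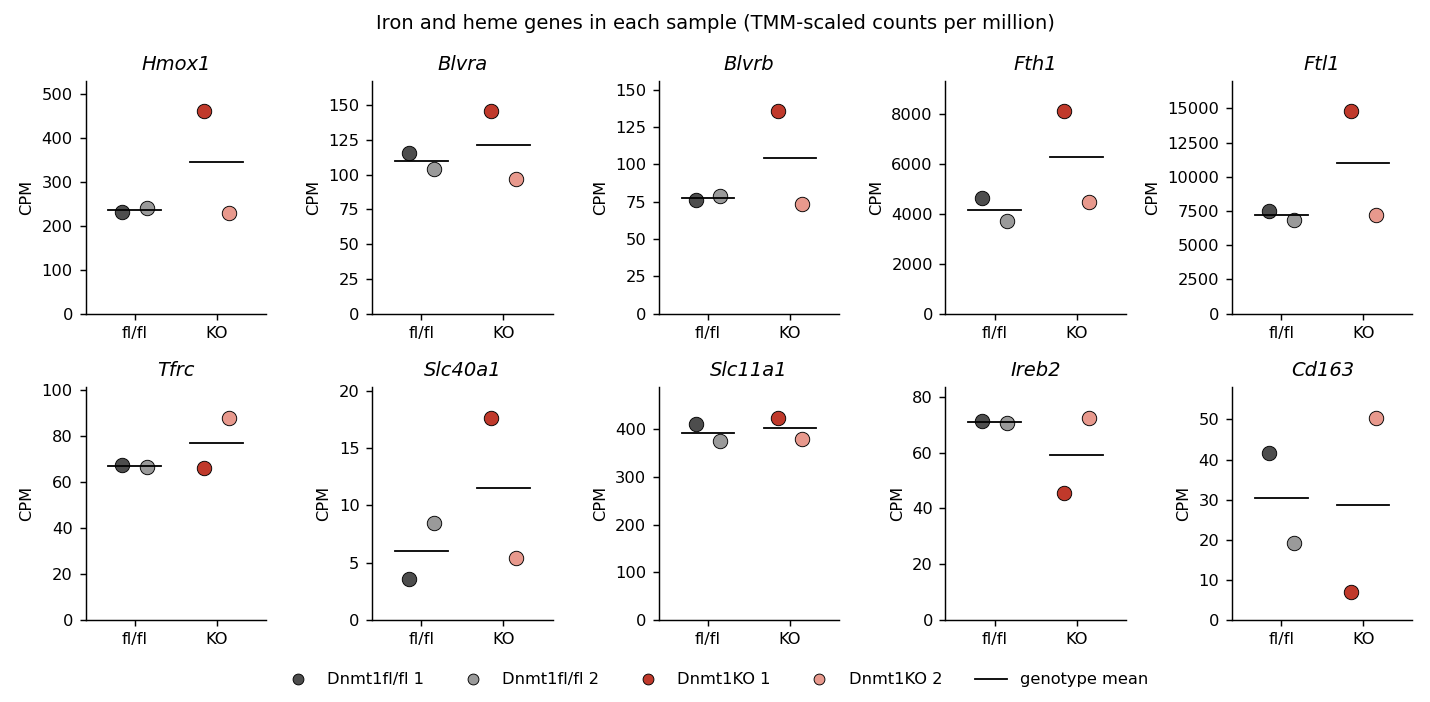
TMM-scaled CPM (vertical axes, each from 0) of the 10 genes in the 4 samples, with each point a sample and each line a genotype mean. Dnmt1KO replicate 1 (dark red) is the highest point for 7 genes and the lowest for Tfrc, Ireb2 and Cd163.

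Heme breakdown begins with Hmox1 (chromosome 8, 75093621 to 75100589, plus strand, GRCm38), heme oxygenase 1, the inducible enzyme that cuts heme into biliverdin, carbon monoxide and iron. Its level was 232 and 241 CPM in Dnmt1fl/fl and 461 and 229 CPM in Dnmt1KO. Replicate 1 of Dnmt1KO alone was high, at 2.02 times replicate 2, and replicate 2 was the lowest of the 4 samples. The log2 fold change was 0.54 (SE 0.37, edgeR unadjusted p = 0.193), from means of 236 ± 6.02 and 345 ± 165 CPM (SD, n = 2).

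Blvrb (chromosome 7, 27447978 to 27466144, plus strand), a NADPH-dependent reductase of biliverdin and flavins, had the same order. It stood at 76.0 and 78.6 CPM in Dnmt1fl/fl and at 136 and 73.5 CPM in Dnmt1KO, a log2 fold change of 0.44 (SE 0.33). The ratio of Hmox1 to Blvrb CPM was 3.06, 3.06, 3.40 and 3.11 in Dnmt1fl/fl 1 and 2 and Dnmt1KO 1 and 2, a range of 1.11-fold, whereas the Dnmt1KO replicates differed by 2.02-fold in Hmox1 and 1.84-fold in Blvrb. Blvra (chromosome 2, 127070665 to 127097084, plus strand), the enzyme that turns biliverdin IX-alpha into bilirubin, was at 115 and 104 CPM in Dnmt1fl/fl and 145 and 96.5 CPM in Dnmt1KO. Its log2 fold change was 0.14 (SE 0.28), and Dnmt1KO replicate 1 exceeded the Dnmt1fl/fl mean by 0.41 on the log2 scale, less than for Blvrb (0.81). Hmox2, the constitutive heme oxygenase, was at 135 and 146 CPM in Dnmt1fl/fl and 197 and 143 CPM in Dnmt1KO.

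Iron storage rests on ferritin, a hollow shell built of heavy and light chains, of which the heavy chain oxidizes iron and the light chain aids its deposition. The light chain gene Ftl1 (chromosome 7, 45457944 to 45459884, minus strand) was at 7508 and 6875 CPM in Dnmt1fl/fl and 14784 and 7207 CPM in Dnmt1KO. The heavy chain gene Fth1 (chromosome 19, 9980598 to 9985098, plus strand) was at 4629 and 3693 CPM in Dnmt1fl/fl and 8095 and 4454 CPM in Dnmt1KO. In both genes Dnmt1KO replicate 2 lay between the Dnmt1fl/fl samples and replicate 1 lay far above all others. The log2 fold changes were 0.61 (SE 0.41) for Ftl1 and 0.59 (SE 0.37) for Fth1, with edgeR unadjusted p of 0.186 and 0.168.

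Between samples the proportion of the chains varied less than their amount. Ftl1 counts were 1.62, 1.86, 1.83 and 1.62 times the Fth1 counts in Dnmt1fl/fl 1 and 2 and Dnmt1KO 1 and 2. Together they took 1.23% and 1.10% of all counts in Dnmt1fl/fl and 2.08% and 1.22% in Dnmt1KO. The pseudogene Ftl1-ps1 had 198 to 480 counts, 0.129% to 0.164% of those of Ftl1, and how reads matching both were shared out is not stated. An exon of Ftl1 also shares 355 bases with Gm10252 on the opposite strand, and reads of the 2 cannot be told apart without strand.

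Iron enters through Tfrc (chromosome 16, 32608920 to 32632794, plus strand), the transferrin receptor, whose 3′ UTR carries the 4 hairpins printed above. It was at 67.5 and 66.6 CPM in Dnmt1fl/fl and at 66.1 and 88.2 CPM in Dnmt1KO. Here replicate 2 of Dnmt1KO was the high sample and replicate 1 fell just below the Dnmt1fl/fl samples. The log2 fold change was 0.20 (SE 0.24). The ratio of Tfrc to Fth1 CPM, which sets import against storage, was 0.0146 and 0.018 in Dnmt1fl/fl, 0.00817 in Dnmt1KO replicate 1 and 0.0198 in replicate 2, a range of 2.42-fold. With the trend on transcript length removed, as described below, Dnmt1fl/fl replicate 2 had the highest ratio (0.0184 beside 0.0172 in Dnmt1KO replicate 2) and the range was 1.73-fold.

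Iron leaves through Slc40a1 (chromosome 1, 45908068 to 45926523, minus strand), ferroportin, the iron exporter at the cell surface. It was low in these cells, at 3.56 and 8.45 CPM in Dnmt1fl/fl and 17.7 and 5.38 CPM in Dnmt1KO, from 73, 212, 350 and 127 counts. Dnmt1KO replicate 1 was high, but the Dnmt1fl/fl samples themselves differed by 2.38-fold and enclosed Dnmt1KO replicate 2. The log2 fold change of 0.93 was the largest of the 10 and had an SE of 0.68 (edgeR unadjusted p = 0.220). The pooled SD within genotypes was 1.05 on the log2 scale, larger than that of 95.2% of genes tested.

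Slc11a1 (chromosome 1, 74375195 to 74386062, plus strand), also known as Nramp1, moves iron and manganese out of the phagosome. At 411 and 376 CPM in Dnmt1fl/fl and 425 and 379 CPM in Dnmt1KO it was the steadiest of the 10, with a log2 fold change of 0.03 (SE 0.23) and a pooled SD of 0.10. Its sign was negative (-0.04) when libraries were scaled by their totals alone.

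Iron sensing was represented by Ireb2 (chromosome 9, 54863789 to 54912530, plus strand), which encodes iron-regulatory protein 2, degraded when iron is plentiful. It was at 71.4 and 70.6 CPM in Dnmt1fl/fl and 45.5 and 72.6 CPM in Dnmt1KO. Replicate 1 of Dnmt1KO alone was low, and the other 3 samples lay between 70.6 and 72.6 CPM. The log2 fold change was -0.27 (SE 0.28). Aco1, which encodes iron-regulatory protein 1, was at 103 and 87.6 CPM in Dnmt1fl/fl and 102 and 95.6 CPM in Dnmt1KO. Fbxl5, the iron-binding ligase subunit that marks Ireb2 protein for degradation, was at 114 and 158 CPM in Dnmt1fl/fl and 161 and 149 CPM in Dnmt1KO.

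Cd163 (chromosome 6, 124304656 to 124330527, plus strand), the macrophage receptor for hemoglobin bound to haptoglobin, varied most. It was at 41.7 and 19.1 CPM in Dnmt1fl/fl and 6.97 and 50.5 CPM in Dnmt1KO, from 856, 479, 138 and 1192 counts. The Dnmt1KO samples were the lowest and the highest of the 4, 7.25-fold apart, and the Dnmt1fl/fl samples between them differed by 2.18-fold. The log2 fold change of -0.08 (SE 0.88, edgeR unadjusted p = 0.933) is the near-cancellation of those values, and its size depended on how the mean was formed: limma-voom gave -0.54. The pooled SD of 1.53 on the log2 scale exceeded that of 98.8% of genes tested. Dnmt1KO replicate 1 was also the lowest sample in 7 of the 8 resident macrophage markers, by margins that ran from Alox15 (5.15 CPM beside 25.3 to 68.1 CPM) to Cd5l (624 CPM beside 662 to 1020 CPM), while Fabp7 was highest in it (38.6 CPM beside 16.2 to 23.4 CPM). The part of these in the value of Cd163 was not tested. The ratio of Slc40a1 to Cd163 CPM ranged 29.7-fold, from 0.0853 in Dnmt1fl/fl replicate 1 to 2.54 in Dnmt1KO replicate 1. The ratio in Dnmt1KO replicate 2 was 0.107.

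**Figure D2:**
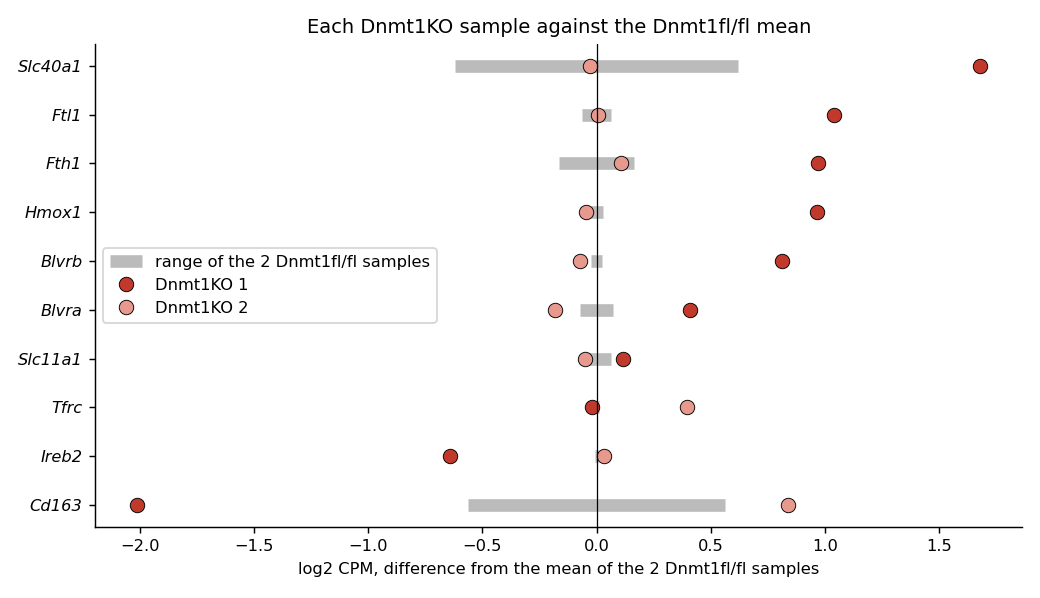
Difference of each Dnmt1KO sample from the mean log2 CPM of the 2 Dnmt1fl/fl samples (horizontal axis), by gene, with the range of the Dnmt1fl/fl samples as a grey bar. Replicate 1 lies from -2.01 (Cd163) to 1.68 (Slc40a1), and replicate 2 lies within or near the grey bar except for Tfrc (0.39) and Cd163 (0.84).

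To order the genes by level, counts were also divided by the length of the longest coding transcript and scaled to the same sum in each sample (TPM). Mean TPM over the 4 samples was 19873 for Ftl1 and 7425 for Fth1, ranks 3 and 12 among the tested genes with a length. Hmox1 (393 TPM) and Slc11a1 (374 TPM) followed, then Blvra (214 TPM) and Blvrb (188 TPM). Tfrc (32.5 TPM), Ireb2 (25.04 TPM), Cd163 (15.3 TPM) and Slc40a1 (5.37 TPM) were far lower. The ranges over samples of Hmox1 and Slc11a1 overlapped, as did those of Blvra and Blvrb and those of each neighbour from Tfrc to Slc40a1, whereas the 2 ferritin genes did not overlap each other or any other member.

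The dependence on single samples was measured by leaving out each in turn. Without Dnmt1KO replicate 1, the log2 fold changes were -0.05 for Hmox1, -0.07 for Blvrb, 0.10 for Fth1, 0.001 for Ftl1 and -0.17 for Slc40a1, and 0 of the 10 genes had an adjusted p under 0.05 (edgeR). Without Dnmt1KO replicate 2, so that replicate 1 stood alone against Dnmt1fl/fl, 6 of the 10 passed, beside 1062 of 12754 genes (8.33%). In that fit the lone sample is assumed to vary like the Dnmt1fl/fl samples, so it describes how replicate 1 differs and not the genotype. The 6 were Hmox1 (0.96, edgeR adjusted p = 0.0203), Blvrb (0.81, 0.03), Fth1 (0.96, 0.0402), Ftl1 (1.04, 0.0296), Slc40a1 (1.55, 0.0381) and Cd163 (-2.12, 0.014), each given with its log2 fold change and then its adjusted p. Without Dnmt1fl/fl replicate 1 the values were 0.59 for Cd163 and 0.45 for Slc40a1, and without replicate 2 they were -0.54 and 1.70, with 0 of the 10 genes past the edgeR threshold in both fits.

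**Figure D3:**
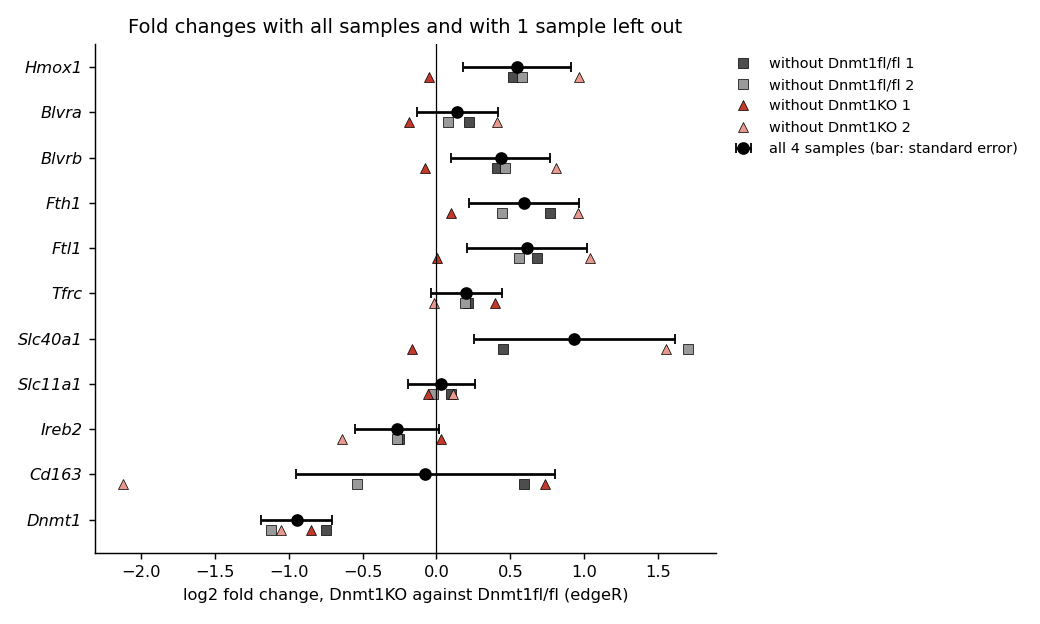
Log2 fold change of Dnmt1KO against Dnmt1fl/fl from edgeR (horizontal axis) for the 10 genes and Dnmt1, with all 4 samples (black, bar: standard error) and with each sample left out. Hmox1, Blvrb, Fth1, Ftl1 and Slc40a1 lie between -0.17 and 0.10 without Dnmt1KO replicate 1 and between 0.81 and 1.55 without replicate 2, while Dnmt1 stays below 0 throughout.

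Samples also differed by transcript length, and Dnmt1KO replicate 1 the most. In Dnmt1KO replicate 1 the median difference from the Dnmt1fl/fl mean was 0.532 on the log2 scale for genes with a longest transcript of up to 1000 bases, and it was -0.431 for genes over 6000 bases. Dnmt1KO replicate 2 ran the other way, from -0.0901 to 0.139, and the Dnmt1fl/fl samples also differed by length, replicate 2 less replicate 1 going from 0.227 to -0.219. The ferritin, biliverdin reductase and heme oxygenase messages are short, from 968 bases (Ftl1) to 1569 bases (Hmox1), whereas those of Cd163 (4443 bases), Tfrc (4890 bases) and Ireb2 (5770 bases) are long. Set against the median of genes of their own length class, replicate 1 was higher by 0.774 for Hmox1, 0.561 for Fth1, 0.509 for Ftl1 and 0.402 for Blvrb, by 1.67 for Slc40a1, and by 0.000496 for Blvra. It was lower by 0.453 for Ireb2 and by 1.82 for Cd163. Once a trend on length was removed from each sample, the log2 fold change was 0.45 for Hmox1, 0.49 for Fth1, 0.41 for Ftl1, 0.26 for Blvrb and 1.01 for Slc40a1, and 0 of the 10 passed the edgeR threshold. Tfrc then had both Dnmt1KO samples (76.7 and 82.0 CPM) above both Dnmt1fl/fl samples (63.0 and 66.0 CPM). It was 1 of the 10 genes without overlap after this correction, beside 18.9% of all genes tested. Dnmt1KO replicate 1 was then no longer the lowest sample in Tfrc, nor the highest in Blvra and Slc11a1. Blvra was at 123 CPM in it and 127 CPM in Dnmt1fl/fl replicate 1, and Slc11a1 at 418.7 and 419.4 CPM. The part that transcript length and the neutrophil and B cell markers play in the values of replicate 1 was not tested.

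**Figure D4:**
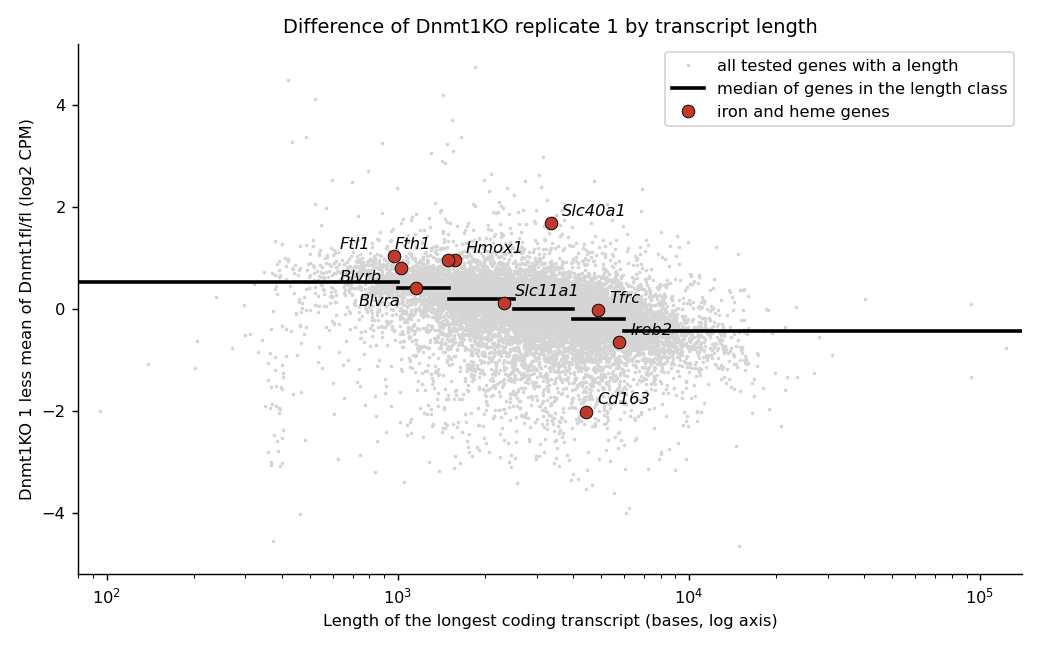
Difference of Dnmt1KO replicate 1 from the mean log2 CPM of Dnmt1fl/fl (vertical axis) against the length of the longest coding transcript (log axis), for all tested genes with a length (grey), the median of each length class (black lines) and the 10 genes (red). Class medians fall from 0.532 to -0.431, with Slc40a1, Hmox1, Fth1, Ftl1 and Blvrb above the line of their class and Cd163 and Ireb2 below.

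Around the 10 genes, the neighbouring steps of the pathway were read from lists of known genes. Of the 10 genes tested for heme uptake, transport and scavenging, 0 passed the edgeR threshold, and 2 had non-overlapping genotypes, both higher in Dnmt1KO, a share near the 16.7% of all genes. These were Slc46a1, a heme and folate carrier (at most 2.23 CPM in Dnmt1fl/fl, 3.99 and 2.63 CPM in Dnmt1KO), and Abcg2, an efflux pump that also carries porphyrins, with log2 fold changes of 0.64 and 0.29. Dnmt1KO replicate 1 was highest in 8 of these 10, beside 38.8% of all genes. The endosomal heme transporter Slc48a1 (114 and 93.1 CPM against 138 and 106 CPM) and the heme exporter Flvcr1 (90.8 and 76.7 CPM against 111 and 82.9 CPM) overlapped between genotypes.

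Among 9 tested genes of iron import, reduction and export, 0 passed, and the genotypes did not overlap in 2, again near the 16.7% of all genes. Hfe, a partner of the transferrin receptor, was at 49.6 and 46.5 CPM in Dnmt1fl/fl and 60.0 and 55.4 CPM in Dnmt1KO. Slc39a14, a carrier of zinc and free iron, was at 12.9 and 12.9 CPM against 12.2 and 11.2 CPM. Slc11a2, which brings iron across the endosomal membrane, was at 40.4 and 36.5 CPM against 39.8 and 30.1 CPM and overlapped.

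Ferritin turnover was represented by 6 tested genes, of which 0 passed. Ncoa4, the receptor that carries ferritin to the lysosome, was at 343 and 276 CPM in Dnmt1fl/fl and 388 and 309 CPM in Dnmt1KO. Pcbp2, an iron chaperone, was the only gene of the list with non-overlapping genotypes, close to the 16.7% of all genes, at 247 and 212 CPM against 276 and 264 CPM (log2 fold change 0.23). In the list of iron sensing and iron-dependent hydroxylation, 0 of 9 passed and 0 had non-overlapping genotypes.

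The regulators that respond to heme and oxidants followed the same picture. Of 11 tested, 0 passed and 0 had non-overlapping genotypes, beside 16.7% of all genes. The median log2 fold change was -0.135, and it was 0.114 without Dnmt1fl/fl replicate 1. Bach1, the heme-binding repressor of Hmox1 and the ferritin genes, was at 211 and 208 CPM in Dnmt1fl/fl and at 150 and 229 CPM in Dnmt1KO. Nfe2l2 was at 308 and 296 CPM against 307 and 230 CPM, and Nr1h3, the liver X receptor alpha, was at 71.5 and 67.8 CPM against 90.6 and 58.0 CPM. Spic, a heme-induced factor of iron-recycling macrophages, had 11, 10, 1 and 3 counts and was below the filter.

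Genes known as targets of Nrf2 separated the Dnmt1KO samples most widely among the pathway lists. Dnmt1KO replicate 1 was highest in 13 of 15, beside 38.8% of all genes, with a median difference from the Dnmt1fl/fl mean of 0.743 on the log2 scale, and replicate 2 had a median of -0.217. Osgin1, an oxidant-induced growth inhibitor, was at 2.68 and 2.91 CPM in Dnmt1fl/fl and 7.42 and 3.05 CPM in Dnmt1KO (log2 fold change 0.90), and Me1, malic enzyme, had 0.39. Both had non-overlapping genotypes, with both Dnmt1KO samples higher. Gclc, the catalytic subunit of the first enzyme of glutathione synthesis, did not overlap in the other direction, at 22.1 and 23.3 CPM in Dnmt1fl/fl and 19.0 and 17.4 CPM in Dnmt1KO (log2 fold change -0.32). The genotypes thus did not overlap in 3 of the 15, beside 16.7% of all genes, and 0 passed the edgeR threshold.

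**Figure D5:**
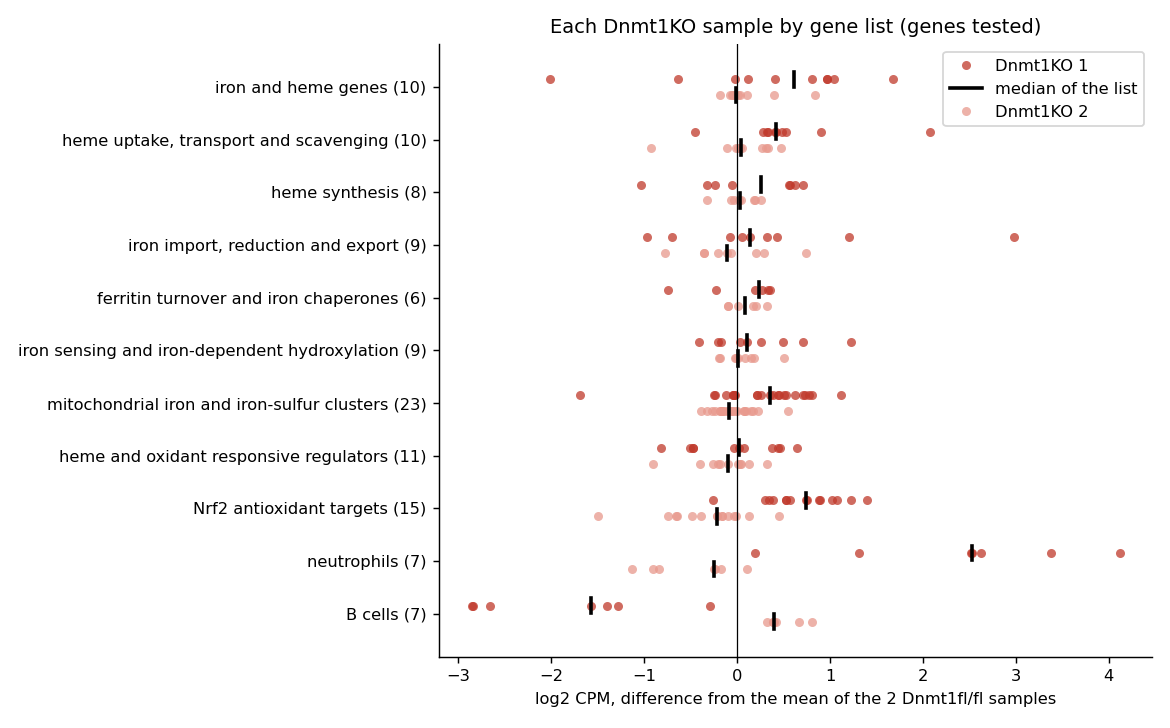
Difference of each Dnmt1KO sample from the mean log2 CPM of Dnmt1fl/fl (horizontal axis) by gene list, with each point a gene and each black bar the median of the list in that sample. Replicate 1 (dark) lies to the right of replicate 2 (light) for the Nrf2 targets (medians 0.743 and -0.217) and the neutrophil markers (2.53 and -0.25) and to its left for the B cell markers (-1.57 and 0.399).

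The genes most like 3 of the members were sought among 100 tested genes of the iron and heme lists, by the root mean square distance of log2 CPM centred on each gene's mean over the 4 samples. For Hmox1, whose own deviation was 0.426, the nearest were Blvrb (0.0642), Ftl1 (0.0716) and Iscu, the scaffold on which iron-sulfur clusters are built (0.0967). For Slc40a1, whose own deviation was 0.852, the nearest were Gsr, glutathione reductase (0.385), Osgin1 (0.427) and Glrx5, a mitochondrial glutaredoxin (0.433). For Cd163, whose own deviation was 1.12, the nearest was Trf, transferrin (0.577), at 1180 and 572 CPM in Dnmt1fl/fl and 420 and 1000 CPM in Dnmt1KO, followed by the mitochondrial iron carrier Slc25a37 (0.600) and by Ppox, an enzyme of heme synthesis (0.637). These distances rest on 4 samples, of which Dnmt1KO replicate 1 is the farthest from the rest in each of the 3 members.

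Because the study deleted a DNA methyltransferase, the number of CpG dinucleotides near each start site was counted in RefSeq promoters (GRCm38.p6, 250 bases before to 50 after the start), although methylation was not measured in these samples. A promoter was found for 8 of the 10 genes, with none listed for Hmox1 and Slc40a1. Cd163 had 2 CpGs in 300 bases, and only 2.5% of 9868 promoters had fewer. Slc11a1 had 7, Blvra 16, Ftl1 20 and Blvrb 20 in the window at its main start, beside a median of 21 over all promoters. Fth1 had 27 in the window at its main start, Ireb2 28 and Tfrc 30. A second window listed for Blvrb held 5 CpGs, and a second window for Fth1 held 4.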

How the data were processed

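The authors aligned paired-end reads with HISAT2 (2.0.5) and counted them per gene with featureCounts (1.5.0-p3) on mm10, per the submitters' processing notes, and deposited estimated counts per gene with no normalization. The annotation they counted on is not given in the sources used here. The library kit named in the methods (NEBNext Ultra) does not mark strand. A shorter table of 2749 genes repeated rows of the whole table and was not used further. It held 5 of the 10 members, beside 2749 of all 13834 genes. The paper gives a log2 fold change cut-off for its changed genes, unlike the adjusted p used here. Whether the shorter table is that list is not stated in the paper. The whole table lists only genes above 0 in all 4 samples, 13834 in all, of which 8 symbols occur more than once.

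Whole numbers made up 72.6% to 76.4% of each sample's values, and the rest were rounded. How the named read counter came to give fractions is not stated in the sources used here. Genes were filtered with filterByExpr, scaled with TMM and tested with edgeR 4.0.16 (R 4.3.3) by the two-sided quasi-likelihood F-test, with p-values adjusted by Benjamini-Hochberg over 12542 genes and a threshold of 0.05. Replicates varied by 28.9% (dispersion 0.0837). The floor of 3 counts covers counting error only. Other fits used limma-voom (limma 3.58.1), DESeq2 1.42.0, other scalings and filters (among them at least 10 counts in every sample), a replicate block, removal of a loess trend on transcript length (span 0.5) and leaving out each sample. The fits were tested on simulated data.

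Replicate numbers come from the sample labels and no source pairs the samples. Deviations of same-numbered samples from their genotype means had a correlation of -0.35. Log2 differences between samples used a prior count of 1. Positions and lengths are from GENCODE M21 by symbol, and 98.5% of genes had a length, that of the longest coding transcript. Promoters are from RefSeq. Python 3.11.15 was used for the rest.

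The members, lists and tests were chosen with earlier results of these data known. Genes named beside the members were, per list, the 2 with the largest log2 fold change among those with non-overlapping genotypes, a fixed set of known regulators and transporters, and the 3 nearest in pattern to Hmox1, Slc40a1 and Cd163. Cell type markers and Ftl1-ps1 were read as checks. The single markers named and Gclc were chosen after their values were seen.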

Additional observations from a re-analysis of the deposited data

How the results depend on the processing

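Over 10 other fits on all 4 samples, 0 of the 10 genes had an adjusted p under 0.05, and every direction was kept except that of Slc11a1, which was -0.043 with library totals only. That scaling moved the median of all genes from 0.00457 to -0.0624. The count over all genes was 1 with DESeq2 and 3 with the crossed pairing. The replicate block gave 0 of the 10 genes and 0 of all genes, with Slc40a1 at 0.82 and Cd163 at -0.56. The crossed replicate block was added after seeing the data, since the samples sharing a number deviated oppositely; it gave 297 genes at an unadjusted p under 0.05 against 35, and 1 of the 10 against 0. Removing the length trend gave 1 of the 10 (Tfrc) with non-overlapping genotypes against 0 before, where 18.9% of all genes did not overlap, as did the length trend with the block, also added after seeing the data; the cause was not tested.

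Leaving out 1 sample gave 0 to 6 of the 10 genes and 0 to 1062 of all genes past the threshold, the upper values without Dnmt1KO replicate 2, and 1 to 10 of the 10 with non-overlapping genotypes, where 40.1% to 82.8% of all genes did not overlap. A lone sample is assumed to vary like the other genotype. The log2 fold change ranged from -0.051 to 0.96 for Hmox1, -0.19 to 0.41 for Blvra, -0.075 to 0.81 for Blvrb, -0.019 to 0.39 for Tfrc, -0.17 to 1.70 for Slc40a1, -0.055 to 0.11 for Slc11a1, -0.64 to 0.031 for Ireb2 and -2.12 to 0.73 for Cd163. Fth1 (0.10 to 0.96), Ftl1 (0.001 to 1.04) and Dnmt1 (-1.12 to -0.75) kept their sign. At this depth Slc40a1 rests on 73 to 350 counts per sample.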

Other observations

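The steps that consume iron inside the mitochondrion were read in the same samples. Of 23 genes of mitochondrial iron and iron-sulfur cluster assembly, 0 passed the edgeR threshold, 2 were higher and 2 lower in both Dnmt1KO samples than in both Dnmt1fl/fl samples, near the 16.7% of all genes without overlap, and the median log2 fold change was 0.182, which was -0.0867 without Dnmt1KO replicate 1 and 0.359 without replicate 2. Hscb, the cochaperone that hands clusters on from the scaffold, was at 16.9 and 15.9 CPM in Dnmt1fl/fl and higher in both Dnmt1KO samples (log2 fold change 0.46, edgeR unadjusted p = 0.0921), with Dnmt1KO replicate 2 the highest of the 4. Lyrm4, a subunit of the desulfurase complex, was at 5.55 and 5.38 CPM against 7.42 and 6.40 CPM.

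Of 8 heme synthesis genes, 0 passed and 0 had non-overlapping genotypes, beside 16.7% of all genes, with a median log2 fold change of 0.192 that was 0.0244 without Dnmt1KO replicate 1 and 0.0968 without Dnmt1fl/fl replicate 2. Alas1, the first and rate-limiting enzyme outside red cells, was at 91.4 and 79.1 CPM in Dnmt1fl/fl and 139 and 67.7 CPM in Dnmt1KO, the order of samples being that of Blvra. Ppox, the enzyme before ferrochelatase, was lowest in Dnmt1KO replicate 1, at 12.7 CPM beside 22.7 to 29.9 CPM in the others. Alas1 was chosen after its values were seen.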
